A study of Mus musculus with 2 samples.

Results

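The nuclear genes of the respiratory chain and the ATP synthase were compared between LPS-stimulated macrophages of mice lacking PAC1 and of wild-type mice. PAC1 is the product of Dusp2, a phosphatase of MAP kinases. The members were found by name: every probe set that the array's annotation gives exactly 1 gene symbol, where that symbol starts with Nduf, Sdh plus a letter, Uqcr, Cox plus a number or Atp5, or is Cycs or Cyc1. This gave 103 probe sets of 80 genes, out of 12654 probe sets and 8220 single-symbol genes on the array. The rule uses no measured value. A further 8 probe sets of these families carried several symbols and were not used.

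The study compared 2 groups of littermates matched for age, Pac1-/- and Pac1+/+, with 1 Affymetrix array each. Macrophages recruited to the peritoneum by an injection of 3% thioglycollate 4 days earlier were purified by adherence, and those of both genotypes were then given 100 ng/ml LPS for 6 hours. There was no unstimulated group to set beside them here, so all values are levels after LPS. The labels give no age, no cell type restriction of the Pac1 deletion, and no number of mice behind each array. Each genotype rests on a single array, so differences could be checked against no replicates, no test could be made, and only sizes are reported.

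The respiratory chain passes electrons from NADH, through complex I, and from succinate, through complex II, to ubiquinone, complex III, cytochrome c and complex IV, where oxygen is reduced to water. Complexes I, III and IV pump protons across the inner mitochondrial membrane, and the ATP synthase uses their return to make ATP. In macrophages exposed to LPS, glycolysis takes over much of ATP production, and succinate oxidation at complex II with electron flow back into complex I is a known source of reactive oxygen species. Most subunits are encoded in the nucleus and are assembled with a few subunits made inside the mitochondrion, which these families of names do not include.

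Signals are MAS5 intensities in arbitrary units, and both arrays had a 2% trimmed mean of 150 and medians of 38 (knockout) and 35 (wild type). Signals under 36.4, the median over every signal in both columns, were raised to that value, which is called the floor here. Probe sets with a signal over the floor on either array are called eligible, and a fold is written as "at least" where the other signal was not over it. Signals of different probe sets cannot be compared with each other, so each comparison is between the 2 arrays for the same probe set. Dusp2, the check of the labels, had a signal of 76.8 in knockout cells against 333 in wild-type cells, and no source used here says whether the deletion covers its probes. Of the macrophage markers, 12 of 15 probe sets were eligible, the Mac-1 gene Itgam was at 356 (knockout) and 301 (wild type), and the summed signals of the list were 44089 and 40233. Of these 12, 9 were higher in the knockout, and both Msr1 probe sets, of a scavenger receptor, were lower, at 1365.5 against 2170.8 (log2 ratio −0.67) and 239.9 against 295.7. Muscle markers, listed because several complex IV isoforms are muscle forms, had 16 of 22 probe sets below the floor on both arrays, among them those of Mb, Acta1 and Myh7. The list summed to 1497 (knockout) and 1383 (wild type), mostly from Pvalb, at 466 and 434, and the brightest probe set of Ckmt2, at 545 and 433.6. B cell, T cell, neutrophil, and stromal and mesothelial markers had summed signals of 603 and 692, 68.1 and 98.8, 1329.9 and 1417.5, and 1330.8 and 1549.8 (knockout first). These sums include probe sets below the floor on both arrays, 14 of 20 for B cells and 3 of 4 for T cells. For neutrophils these were 2 of 8, and for stromal and mesothelial cells 5 of 12. The 1 eligible T cell probe set was that of Cd4, at 32.8 against 74.5. Some single markers lay further apart than any respiratory gene and in both directions. Cd79a, of B cells, was higher in the knockout by at least 2.75-fold, while the other 5 eligible B cell probe sets were lower. The brightest Ighm probe set was 1.87-fold lower. Acta2, of stromal cells, was 2.55-fold lower, while Dcn was 1.29-fold higher. Of the 7 eligible stromal and mesothelial probe sets, 5 were lower in the knockout and 2 higher. What part differences in cell makeup had in the values below was not tested, and in bulk RNA fewer cells of a type cannot be told apart from less RNA per cell.

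The respiratory chain and ATP synthase transcripts were close to equal in the knockout and the wild type, and 0 of the 80 eligible probe sets were 2-fold apart, against 2.3% of all 6838 eligible probe sets. With a lower floor, at the 25th percentile, 9 of 96 were 2-fold apart, against 12.8% of all probe sets eligible there. At 1.5-fold, 4 were higher in the knockout (6.55% of all eligible probe sets were) and 2 were lower (5.91% of all were). The 4 were probe sets of Ndufb2, Uqcr11, Ndufv2 and Atp5pb, and the 2 were those of Cox6b2 and Ndufb3. As shares of the 80, both counts are below those of all probe sets. Of the 80, however, 35 lay in the brightest of the 5 signal bins described below, where ratios past 1.5-fold were rarest. In that bin 14 of all 1368 probe sets were 1.5-fold higher and 31 lower, against 2 and 0 of the 35 members. Only 7 of these 1368 were 2-fold apart, and 5 of 1367 in the next bin, with 21 members. Of all 157 probe sets 2-fold apart, 114 lay in the second dimmest bin, which held 8 members. The 0 at 2-fold is therefore to be read with the signals of the members. The alternative of giving both arrays the same median, called median scaling below, lowers every ratio measured on both arrays by 0.12 on the log2 scale. With it the members split into 2 higher and 2 lower, and all eligible probe sets into 4.33% higher and 9.09% lower. The 2 that no longer reached 1.5-fold were Ndufv2 (log2 ratio 0.53) and Uqcr11 (0.58).

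**Figure D1:**
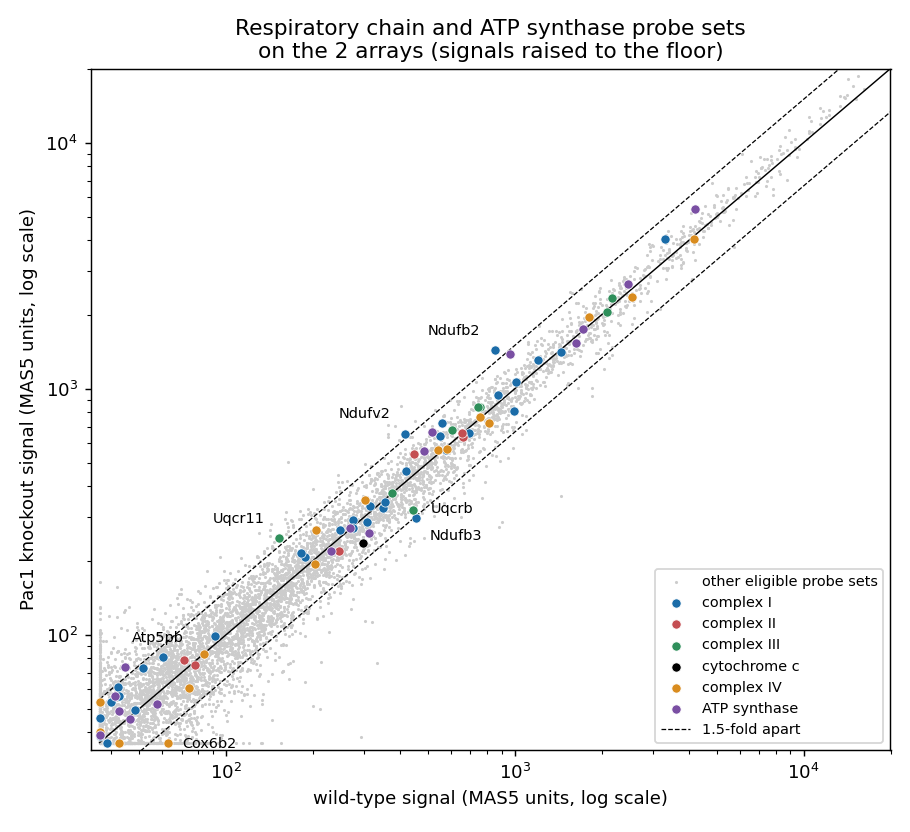
Wild-type signal (x axis) against Pac1 knockout signal (y axis) for each eligible probe set, both in MAS5 units on log scales with signals under 36.4 raised to it; coloured points are the respiratory chain and ATP synthase by complex, grey points are all eligible probe sets, the solid line marks equal signals and the dashed lines 1.5-fold apart. The coloured points follow the solid line, and 6 of 80 lie on or beyond a dashed line.

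Of the 103 probe sets, 72 were above the floor on both arrays, 8 on 1 array and 23 on neither. The 80 eligible probe sets, of 72 genes, had a median log2 ratio (knockout over wild type) of 0.09, with the middle 50% between −0.05 and 0.23, while all eligible probe sets had a median of 0.02 and a middle 50% between −0.20 and 0.24. Ratios above 0 were found for 50 of the 80 (62.5%) and for 52.5% of all eligible probe sets, and these shares became 40.7% and 38.4% with median scaling, where the members' median was −0.03 and that of all probe sets −0.09. The distance between the medians, 0.07 on the log2 scale, lay between 0.06 and 0.08 under the 5 ways of scaling. A difference under 1.25-fold was measured for 59 of the 80 (73.8%), against 65.6% of all eligible probe sets. In the signal bins described below, except the middle one with 2 members, the shares were closer. They were 82.9% of members and 84.1% of all in the brightest bin, and 76.2% and 73.6% in the next. In the dimmest bin they were 57.1% and 60.5%, and in the second dimmest 50% and 47.3%.

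The spread of ratios differed with signal, so the members were also set beside probe sets of like signal. All eligible probe sets were divided by mean signal into 5 bins of equal size. In the brightest bin, with mean signals of 419 and more, the 35 members had a median log2 ratio of 0.11 and the whole bin 0.0035, and 24 of the 35 lay above the median of the bin. With median scaling these values were −0.01 and −0.12, again with 24 of 35 above the median of the bin. In the bin below, with mean signals between 161 and 418, the 21 members had a median of −0.02 and the whole bin 0.0027. The 14 members of the dimmest bin had a median of 0.12 against 0.06 for that bin, and the 8 of the next had 0.29 against 0.05. The members were thus above their bin in the brightest and the 2 dimmest bins and not in the bin below the brightest, a pattern that was not tested. The middle bin held 2 members, with a median of 0.05 against −0.0019 for the whole bin. Across the bins, 5 of the 80 members and 350 of all 6838 probe sets lay outside the middle 95% of ratios of their own bin. The 5 were the probe sets of Ndufb2, Ndufv2, Uqcr11 and Atp5c1 on the higher side and of Cox6b2 on the lower side.

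**Figure D2:**
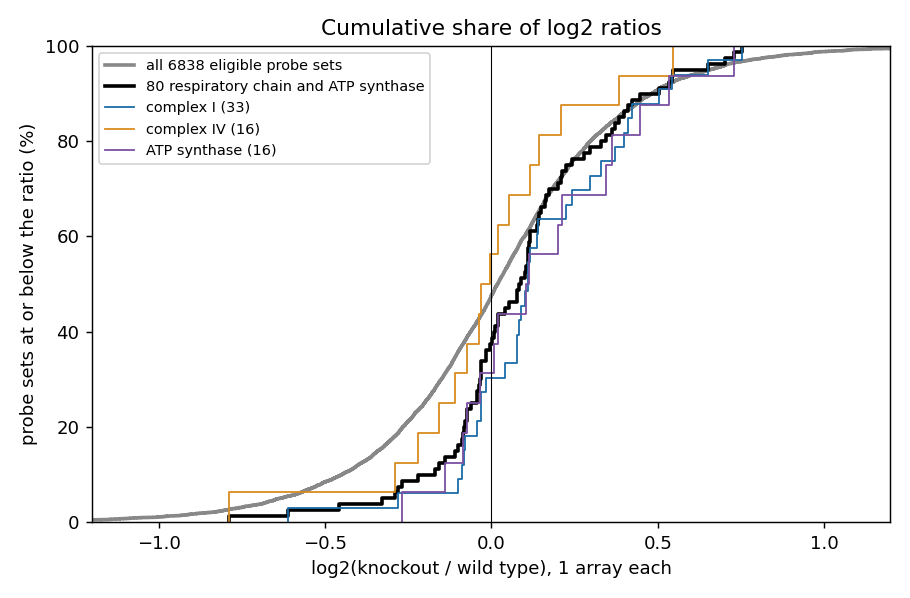
Share of probe sets (y axis, percent) with a log2 ratio of knockout over wild type at or below the value on the x axis, for all 6838 eligible probe sets (grey), the 80 of the respiratory chain and ATP synthase (black), and the 33 of complex I, 16 of complex IV and 16 of the ATP synthase (coloured). The black line lies below the grey one for ratios under 0, which 30 of its 80 probe sets have, and the upper quartiles of both are close, at 0.23 and 0.24; with median scaling both lines move to the left by about 0.12.

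Promoters of nuclear respiratory genes are known for binding sites of NRF1 and of ETS-family factors such as GABP, and the windows from 250 bases before to 50 bases after the gene's start were searched for both, in RefSeq sequence of the mouse build GRCm38.p6. Of the 80 genes, 63 had a window in the table, 69 windows in all. The letters GCGCA, any base, then GCGC, an NRF1-type motif, were found on either strand in 12 of the 63 genes (19.0%), against 9.79% of the genes named on the array and 7.17% of protein-coding genes. The letters CCGGAAG, the core of ETS-type sites, were found in 21 of the 63 (33.3%), against 17.0% and 12.9%. Over all 27025 genes of the table the shares were 5.19% and 9.93%. The median GC content of the windows was 59.0% for the members and 59.7% for the genes on the array. A match of letters is a description of the window and not a measured site.

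Sequences are shown for 3 promoters, Uqcr11 as the complex III gene with the highest ratio, Sdha as the gene with 3 matches to the NRF1-type letters, and Cox6a1 as 1 of 3 genes with both motifs. They lie at chr10:80406772-80407071, minus strand, chr13:74350191-74350490, minus strand, and chr5:115348909-115349208, minus strand. Each is printed 5′ to 3′ on the gene's strand, with matches to either motif on either strand in capitals.
Uqcr11: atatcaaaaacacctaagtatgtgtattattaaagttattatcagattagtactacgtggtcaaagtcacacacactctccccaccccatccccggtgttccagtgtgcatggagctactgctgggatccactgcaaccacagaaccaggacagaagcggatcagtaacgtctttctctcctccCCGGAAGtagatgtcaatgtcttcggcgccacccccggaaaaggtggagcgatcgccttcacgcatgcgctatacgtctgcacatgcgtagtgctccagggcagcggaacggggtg
Sdha: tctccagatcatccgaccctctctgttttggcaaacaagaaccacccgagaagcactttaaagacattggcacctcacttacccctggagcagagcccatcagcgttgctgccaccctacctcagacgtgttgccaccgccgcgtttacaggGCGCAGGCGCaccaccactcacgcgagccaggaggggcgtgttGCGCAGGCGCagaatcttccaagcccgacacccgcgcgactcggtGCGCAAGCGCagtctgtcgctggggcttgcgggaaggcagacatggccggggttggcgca
Cox6a1: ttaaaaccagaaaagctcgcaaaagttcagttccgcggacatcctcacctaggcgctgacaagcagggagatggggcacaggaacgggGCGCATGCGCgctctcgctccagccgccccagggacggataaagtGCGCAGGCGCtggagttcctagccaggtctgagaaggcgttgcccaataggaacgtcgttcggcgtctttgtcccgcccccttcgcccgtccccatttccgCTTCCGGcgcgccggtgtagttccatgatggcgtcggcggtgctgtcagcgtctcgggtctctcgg
The single match in Uqcr11 is an ETS-type core starting 66 bases before the gene's start. The 3 in Sdha are of the NRF1 type and start 98, 55 and 10 bases before it. Cox6a1 has NRF1-type letters starting 162 and 117 bases before the start and an ETS-type core on the other strand starting 16 bases before it.

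Ratios were also set beside these letters. Eligible probe sets of genes with the NRF1-type letters, 12 in number, had log2 ratios between −0.28 and 0.53 with a median of 0.06, and the 51 of genes whose windows lacked them had a median of 0.11. The 20 probe sets of genes with the ETS-type letters lay between −0.22 and 0.70 with a median of 0.01 and 11 above 0. The 43 without them lay between −0.79 and 0.75 with a median of 0.11 and 29 above 0. The medians were lower with either motif, the ranges overlapped, and neither difference was tested.

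**Figure D3:**
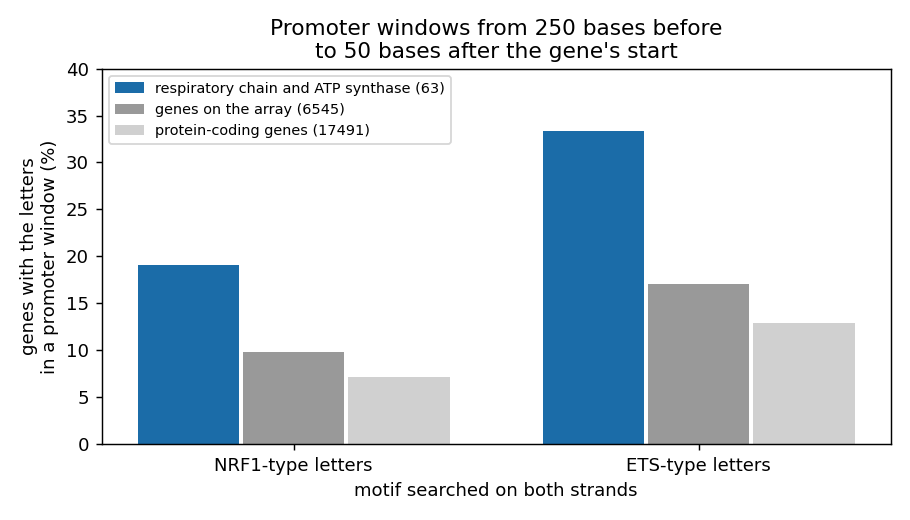
Percent of genes (y axis) with the NRF1-type or ETS-type letters in a promoter window, for the 63 respiratory chain and ATP synthase genes with a window, the 6545 single-symbol genes of the array with a window and all 17491 protein-coding genes with a window. The bars of the respiratory genes are at 19.0% and 33.3%, and those of the genes on the array at 9.79% and 17.0%. The longer ETS-type form CCGGAAGT, not drawn, was found in 9.52% of the respiratory genes and 7.79% of the genes on the array.

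Complex I, which oxidises NADH, was represented by 42 probe sets of 32 genes, assigned to it only by names starting with Nduf. Of the 42 probe sets, 33 were eligible. Their median log2 ratio was 0.11, with 23 of 33 above 0, and −0.01, with 15 of 33 above 0, with median scaling; in both cases 23 of 33 lay above the median of all eligible probe sets. The largest ratio was that of a probe set of Ndufb2, an accessory subunit of the membrane arm, at 1438 in the knockout against 852 in the wild type (log2 ratio 0.75, 1.69-fold). Ndufb2 had 3 further probe sets above the floor, at 644 against 552 (0.22), 80.8 against 60.3 (0.42) and 56.0 against 42.5 (0.40). All 4 were higher in the knockout, also with median scaling. The probe sets at 1438, 644 and 56.0 carry suffixes, which on this array mark probes that may match other transcripts too or did not meet every design rule. Of the 80 eligible probe sets of all complexes, 26 carry a suffix, among them those of Ndufa5, Ndufb5, Sdhb and Uqcrb named below.

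Among the core subunits of the matrix arm, Ndufv2, an iron-sulfur subunit of the NADH-oxidising module, was at 654 against 417 (log2 ratio 0.65, 1.57-fold), beyond the middle 95% of ratios at its signal, which ran from −0.56 to 0.45. Its partner Ndufv1, which binds FMN and NADH, was at 1059.7 against 1005 (0.08). The iron-sulfur subunit Ndufs1 was at 214 against 181 (0.24), and the core subunit Ndufs3, which links this module to the ubiquinone site, was at 347 against 354 (−0.03). The core subunits of this arm thus differed among themselves, with Ndufv2 alone past 1.5-fold. Ndufv3, an accessory subunit beside them, was at 98.7 against 91.5 (0.11). Ndufs4, an accessory subunit whose loss is a known cause of complex I deficiency, was at 38.5 in the wild type and below the floor in the knockout, lower by at least 1.06-fold.

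Ndufb3, an accessory subunit of the membrane arm, was the lowest of complex I at 297 in the knockout against 453 in the wild type (log2 ratio −0.61, 1.53-fold lower). It lay inside the middle 95% of ratios at its signal, which began at −0.67. The next lowest were Ndufa5, at 814 against 989 (−0.28), and Ndufa13, also known as GRIM-19, at 287 against 308 (−0.10). Other membrane-arm accessory subunits were close to equal on the arrays. Ndufb5 was at 4061 against 3309 (0.30), Ndufb7 at 1308 against 1206 (0.12) and Ndufb6 at 560.1 against 577 (−0.04), whose other probe set was below the floor. Ndufb8, Ndufb9, Ndufb10 and Ndufb11 had log2 ratios of 0.09, 0.08, 0.14 and −0.09. Ndufb2 and Ndufb3 were therefore the widest apart within this group of subunits, in opposite directions.

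Of the Ndufa accessory subunits, Ndufa10 was highest, at 61.2 against 42.0 (log2 ratio 0.54), a dim probe set. Ndufa9, which lies near the ubiquinone site, was at 723 against 559 (0.37), and Ndufa6 was 1.33-fold higher in the knockout on a dim probe set (0.41). Ndufa7, at 1409 against 1439 (−0.03), Ndufa2, at 657 against 694 (−0.08), and Ndufa8, at 267 against 248 (0.10), were within 1.25-fold. The 2 probe sets of Ndufa3 were at 944 against 874 (0.11) and 49.5 against 48.1 (0.04). The mitochondrial acyl carrier gene Ndufab1 was at 461 against 419 (0.14), with its other probe set below the floor, and Ndufc1 at 271 against 274 (−0.02). The X-linked Ndufa1 was at 45.7 in the knockout and below the floor in the wild type, higher by at least 1.26-fold, on 1 of 2 probe sets. Ndufa4l2, a relative of Ndufa4 known to be induced by low oxygen, is counted here by its name alone. It was dim, at 38.6 in the knockout and below the floor in the wild type (at least 1.06-fold higher). Ndufaf1, an assembly factor of complex I, was at 73.1 against 51.5 (0.51) on 1 of its 2 probe sets. The other was below the floor on both arrays, as were the assembly factor Ndufaf4 and the subunits Ndufa12 and Ndufc2.

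**Figure D4:**
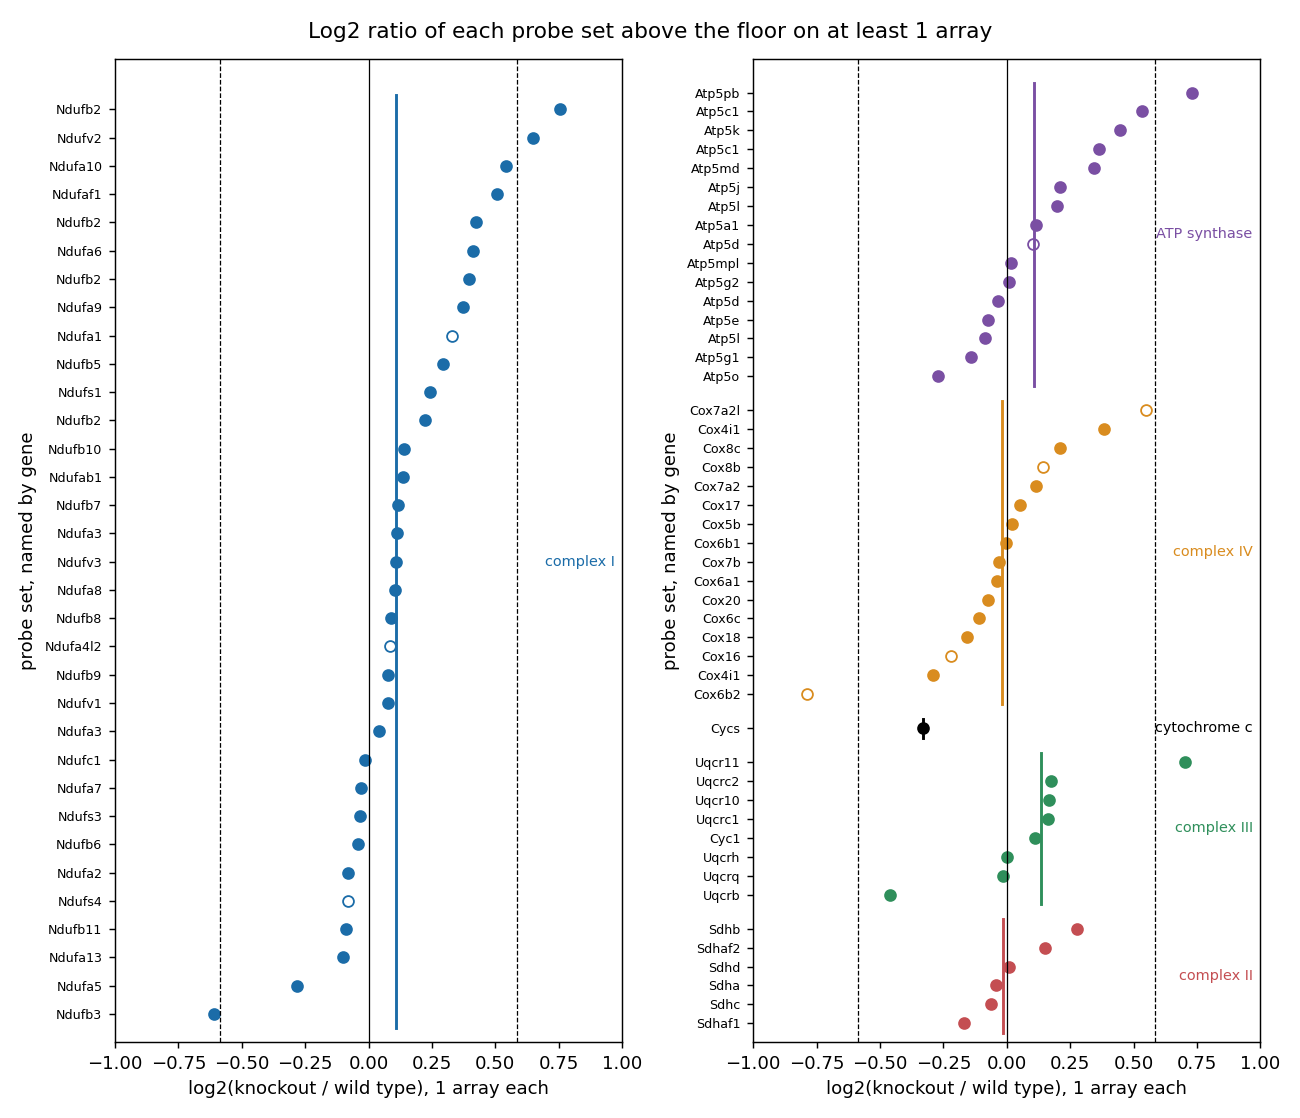
Log2 ratio of knockout over wild type (x axis) for each eligible probe set, named by its gene on the y axis and sorted within its complex; filled points had both signals above the floor, open points had 1 signal below it and are lower bounds of the difference, coloured vertical lines are the medians and dashed lines mark 1.5-fold apart. Ndufb2, Ndufv2, Uqcr11 and Atp5pb lie beyond the right dashed line and Cox6b2 and Ndufb3 beyond the left, and with median scaling Ndufv2 and Uqcr11 move inside it.

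Complex II, succinate dehydrogenase, differed least among the complexes with several probe sets, with all 6 eligible probe sets within 1.25-fold. The flavoprotein Sdha, where succinate is oxidised, was at 75.3 in the knockout against 77.6 in the wild type (log2 ratio −0.04). The iron-sulfur subunit Sdhb was at 540.3 against 445 (0.28), and the membrane anchors Sdhc and Sdhd were at 633 against 660.3 (−0.06) and 660.4 against 655 (0.01). Sdhb was thus the highest of the 4 subunits. The assembly factors Sdhaf1 and Sdhaf2 were at 218 against 245 (−0.17) and 78.9 against 71.1 (0.15). The median of the 6 was −0.02, −0.135 with median scaling and 0.01 after quantile normalization.

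Complex III, the cytochrome bc1 complex, had 8 probe sets, all above the floor on both arrays, with a median log2 ratio of 0.14 and of 0.02 with median scaling. Uqcr11, a small subunit whose promoter is printed above, was at 248 in the knockout against 152 in the wild type (0.70, 1.63-fold), just beyond the middle 95% at its signal, which ended at 0.68. Uqcrb, a subunit that contributes to ubiquinone binding, was the lowest at 322 against 442 (−0.46, 72.8% of the wild-type signal). The others were between these. Cyc1, the heme-bearing cytochrome c1, was at 2335 against 2162 (0.11), and the core proteins Uqcrc1 and Uqcrc2 were at 676 against 605 (0.16) and 839.7 against 745 (0.17). Uqcr10 was at 845 against 754 (0.17), the hinge protein gene Uqcrh at 376 against 375 (100.2% of the wild type) and Uqcrq at 2054 against 2077 (−0.02).

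Cycs, the mobile electron carrier cytochrome c that also triggers apoptosis when released, was lower in the knockout, at 237 against 297 (log2 ratio −0.33, 1.26-fold). It rests on 1 probe set and lay inside the middle 95% of ratios at its signal. It was lower under every scaling tried, between −0.45 and −0.32. Cycs and its reductase subunit Cyc1, at 108% of the wild-type signal, thus lay on opposite sides of 0, and Cyc1 was at −0.01 with median scaling.

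Complex IV, cytochrome c oxidase, had 26 probe sets of 19 genes, of which 16 were eligible, with 7 above 0 and a median log2 ratio of −0.02 (−0.12 with median scaling). Its common subunits were nearly equal on the arrays. Cox6a1, whose promoter is printed above, was at 4058 in the knockout against 4168 in the wild type (−0.04), Cox6c at 2357 against 2544.5 (−0.11) and Cox7a2 at 1959.6 against 1809 (0.12). Cox5b was at 768 against 756 (0.02), Cox7b at 570.0 against 583 (−0.03) and Cox6b1 at 83.7 against 83.9 (99.8% of the wild type). These 6 genes were all within 1.25-fold. The 2 probe sets of Cox4i1, the regulatory subunit that binds ATP, went opposite ways, at 267 against 204 (0.38) and 60.8 against 74.3 (−0.29). The brighter of them carries a suffix. Cox7a2l, known for joining complexes III and IV into supercomplexes, was at 53.2 in the knockout and below the floor in the wild type, higher by at least 1.46-fold.

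The tissue isoforms of complex IV were mostly below the floor. Cox8b and Cox7a1, forms of heart and skeletal muscle, had 3 of 4 probe sets below it on both arrays, and the remaining Cox8b probe set was at 40.2 in the knockout and below the floor in the wild type. Cox6a2, another muscle form, was at 28.2 against 36.4, and Cox8a, the common counterpart of Cox8b, was at 20.6 against 18.2, both not above the floor. Of 3 probe sets of Cox6b2, a testis form, 1 was at 62.9 in the wild type and below the floor in the knockout, lower by at least 1.73-fold, and the other 2, between 0.9 and 17.1, were below the floor on both arrays. The 1.73-fold difference thus rests on 1 dim probe set with a suffix, and Cox6b2 had no eligible value without suffixed probe sets. Cox8c, also known as a testis form, was at 351 against 303 (log2 ratio 0.21), a name that rests on the annotation of 1 probe set.

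The assembly factors of complex IV were within 1.25-fold where they were measured on both arrays. Cox17, the copper chaperone, was at 563 against 542 (log2 ratio 0.05), Cox20 at 193 against 203 (−0.07) and Cox18, which inserts a subunit into the membrane, at 728 against 811 (−0.16). Cox16 was at 42.4 in the wild type and below the floor in the knockout (at least 1.16-fold lower), and Cox14 was below it on both arrays. Over the assembly factors of all complexes, 7 of 12 probe sets were eligible, with 3 above and 4 below 0 and Ndufaf1 the highest.

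The ATP synthase had 20 probe sets of 14 genes, 16 of them eligible, with a median log2 ratio of 0.11, and of 0.02 with median scaling or with 1 probe set per gene. The catalytic head was represented by Atp5a1, the alpha subunit, at 2664 in the knockout against 2462 in the wild type (0.11). Atp5c1, the gamma subunit that forms the rotating shaft, was at 1388 against 958 (0.53, 1.45-fold) and 666 against 518 (0.36) on its 2 probe sets. The brighter, which carries a suffix, lay above the middle 95% of ratios at its signal. Of the other subunits of the rotor foot, Atp5e was at 219 against 230 (−0.07) on a suffixed probe set. The brightest Atp5d probe set was at 45.2 against 46.3 (−0.04), too close to the floor to set beside Atp5c1. Of the other 3 Atp5d probe sets, 1 was above the floor in the knockout only (39.1).

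In the peripheral stalk, which holds the head still, Atp5pb was the highest of the ATP synthase at 73.6 against 44.4 (log2 ratio 0.73, 1.66-fold). It was dim, and ratios of probe sets of like signal ran from −1.07 to 1.19 in their middle 95%, so it lay well inside their spread. Atp5o, which joins the stalk to the head, was the lowest at 259 against 312 (−0.27), and Atp5j was at 559 against 483 (0.21). The stalk genes therefore lay on both sides of 0. The ring genes Atp5g1 and Atp5g2, which encode the same mature c subunit, were at 52.0 against 57.3 (−0.14) and 270.1 against 269 (0.01). Of the small membrane subunits at the dimer interface, Atp5md was at 5358 against 4220.5 (0.34), Atp5k at 56.2 against 41.2 (0.45), Atp5l at 1532 against 1624 (−0.08) on its brighter probe set and 48.9 against 42.6 (0.20) on the other, and Atp5mpl at 1747 against 1725 (0.02). Atp5md had the brightest signal of all eligible members, on a suffixed probe set. Atp5j2 was below the floor on both arrays.

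A list of catalytic, electron-carrying and other central subunits was taken over all complexes. The other central ones include Uqcrc1, Uqcrc2, Cox4i1, Cox5b and the rotor genes Atp5c1, Atp5d and Atp5e. Of its 23 probe sets, 21 were eligible, of 18 genes. They had 14 ratios above 0 and a median log2 ratio of 0.10, close to the 0.09 of all eligible members. Other genes of this group were not analysed here.

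Probe sets of the same gene give the only measure of error in these data, within the pair of arrays and not between mice. Of the 17 genes with several probe sets, 6 had several eligible ones, which formed 11 pairs. Of the rest, Cox6c, Cox18, Atp5g2, Ndufa4l2, Ndufa1, Ndufab1, Ndufaf1, Ndufb6, Cox6b2 and Cox8b had a single eligible probe set, and Ndufaf4 had none. The median difference between log2 ratios within a pair was 0.20, and 8 of the 11 pairs had the same sign. Over all 666 genes with several eligible probe sets, the median difference was 0.32 over 901 pairs, and 52.9% had the same sign. Of the 11 pairs, 6 belong to the 4 probe sets of Ndufb2, all with the same sign, so these pairs are not independent. The pairs of Atp5d, Atp5l and Cox4i1 had opposite signs, and the widest pair was Cox4i1, 0.67 apart. With both signals above the floor, the median difference was 0.24 for the members and 0.28 for all genes. The same sign was then found in 8 of 10 member pairs and in 54.8% of all pairs.

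**Figure D5:**
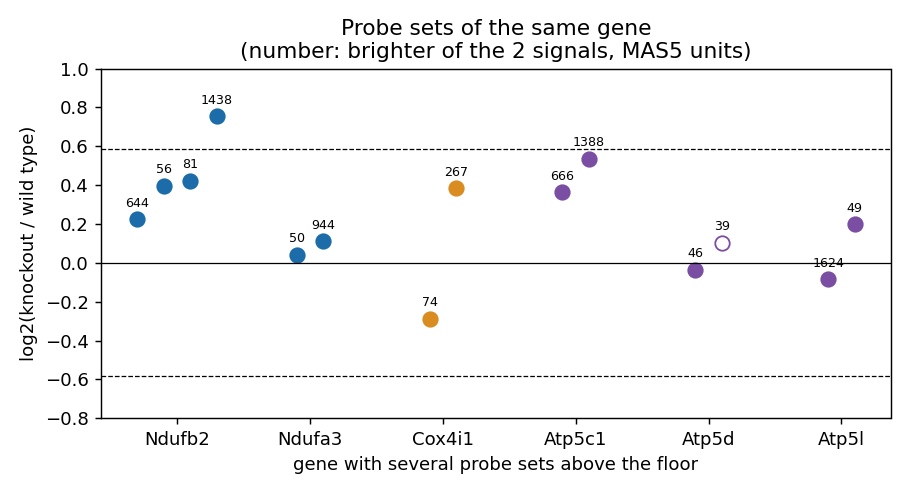
Log2 ratio of knockout over wild type (y axis) for the probe sets of the 6 genes with several eligible ones (x axis); the number at each point is the brighter of its 2 signals, the open point had 1 signal below the floor, and dashed lines mark 1.5-fold apart. The 4 Ndufb2 probe sets spread from 0.22 to 0.75, and those of Cox4i1 lie at −0.29 and 0.38.

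Related genes outside the families were described from lists of the pathway, and of all eligible probe sets 6.55% were 1.5-fold higher and 5.91% lower. Among carriers and electron entry points, 14 probe sets of 12 genes were eligible, with 6 above 0, 0 at 1.5-fold higher, 1 lower and a median log2 ratio of −0.06. The 1 was Slc25a3, the mitochondrial phosphate carrier that supplies the ATP synthase, at 51.9 against 82.6 (−0.67, 1.59-fold lower). The voltage-dependent anion channel gene Vdac3 was highest, at 103 against 74.8 (0.46), and the electron transfer flavoprotein gene Etfb was at 254.6 against 339.6 (−0.42). The adenine nucleotide carriers Slc25a4 and Slc25a5 were at 652 against 562.5 (0.21) and, on the brightest of 3 probe sets, 316 against 235 (0.43). Another Slc25a5 probe set was at 80.7 against 67.1 (0.27), and both of these carry suffixes. The remaining Slc25a5 probe set went the other way, at 40.2 in the wild type and below the floor in the knockout, lower by at least 1.10-fold. The inhibitor of ATP hydrolysis, Atpif1, was at 1249.5 against 1321.5 (−0.08).

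Of the assembly and biogenesis genes outside the families, 11 of 12 probe sets were eligible, with 2 at 1.5-fold higher (6.55% of all eligible probe sets were), 0 lower (5.91% of all) and a median of 0.24 (0.12 with median scaling). Foxred1, an assembly factor of complex I, was at 323 against 192 (log2 ratio 0.75, 1.68-fold), beyond the middle 95% at its signal. Higd1a was at 57.5 against 37.4 (0.62, 1.54-fold), inside the middle 95% at its own signal. Surf1, an assembly factor of complex IV, was at 70.6 against 49.0 (0.53), and Coq9, of ubiquinone synthesis, was lowest at 39.5 against 50.9 (−0.37). Among transcription factors of respiratory genes, 13 of 22 probe sets were eligible, with 1 at 1.5-fold higher, 2 lower (against the same 6.55% and 5.91% of all) and a median of −0.24 (−0.38 with median scaling). Gabpa, the DNA-binding part of GABP, was at 47.0 against 99.9 (−1.09, 2.13-fold lower) on 1 probe set and below the floor on the other. The measured Gabpa ratio was just beyond the middle 95% at its signal, which began at −1.07. Its partner Gabpb1 was at 74.3 against 72.9 (0.03) and 58.6 against 42.8 (0.45). Polrmt, the mitochondrial RNA polymerase, was lower by at least 1.74-fold and at least 1.41-fold on 2 of 3 probe sets and below the floor on the other. The 2 probe sets of Esrra went opposite ways, at 226 against 145 (0.63) and 85.4 against 128 (−0.58). Tfam, which packages mitochondrial DNA, and the coactivator Ppargc1a were below the floor on both arrays. Mitochondrially encoded subunits had 0 single-symbol probe sets.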

How the data were processed

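RNA of 2 macrophage preparations was hybridised to 1 array each. For every probe set the authors deposited an intensity computed with MAS5, per the submitters' processing notes; no source used here gives its version or settings. Probe sets were named through the platform's annotation table. Of 12588 probe sets that are not controls, 10276 had 1 symbol, 363 several and 1949 none in the table. All 80 member genes had an Entrez identifier in RefSeq's table (GRCm38.p6), which changed 0 symbols.

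Both arrays were scaled to the same 2% trimmed mean (Python 3.11.15, numpy 2.4.6, pandas 2.3.3), signals were raised to the floor, and log2 ratios of knockout over wild type were taken. Probe sets were counted at 1.5-fold and 2-fold. Ratios at like signal were described in 5 equal bins of mean signal. The code was tested on simulated data. Scaling, floor, eligibility, 1 probe set per gene and suffixed probe sets were varied. The number of arrays limits the precision. Named were probe sets 1.5-fold apart, the 3 highest and 3 lowest per complex, and the list of catalytic, electron-carrying and other central subunits. Tissue isoforms, assembly factors and genes with several probe sets were named too. Of related lists, the extremes and those 1.5-fold apart were named. Further genes were added after their values were seen. Members and lists were chosen with earlier results of these data known.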

Additional observations from a re-analysis of the deposited data

How the results depend on the processing

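With arrays scaled to the same median, the members' median log2 ratio was −0.031, that of complex I −0.0078, complex II −0.135, complex III 0.018, Cycs −0.45 and complex IV −0.12, and the medians of the related lists were 0.12 for assembly and biogenesis and −0.38 for transcription factors; 2 members were then 1.5-fold higher. This scaling lowers every measured ratio by 0.12 by its construction. With a floor at the 25th percentile, 12 members were 1.5-fold higher, 7 lower and 9 were 2-fold apart, since dim signals then enter; of all probe sets 15.8% were 1.5-fold higher, 12.7% lower and 12.8% 2-fold apart. The count of lower members was 1 with the floor at the 75th percentile, with both signals above the floor and without suffixed probe sets, since Cox6b2 is left out there. Quantile normalization, loess and no further scaling gave 4 higher and 2 lower, as in the report. No paired analysis was possible because each genotype has 1 array. Signal limits the dim members, and 23 probe sets below the floor on both arrays have no ratio.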
